A study of Bos taurus with 15 samples.

Results

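The insulin-like growth factor system was followed in caruncular endometrium (the tissue of the sites where the placenta attaches) from cows of the Japanese Black breed, around the time when the cow has to recognize a pregnancy. Its members were taken from a custom 1-color Agilent array of bovine oligonucleotide probes, as every probe with the gene name IGF1, IGF2, IGF1R, IGF2R or IGFBP and a number, or with a description that names an insulin-like growth factor, its receptor or a binding protein. This rule used no measured value and found 13 probes of 12 genes or transcripts, among 15208 probes with 6915 distinct gene symbols. IGF1 had 2 probes. Searching the descriptions added IGFALS and a transcript described as similar to IGFBPL1, which is called here by its accession AW313917.

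Each array held the RNA of 1 cow. Tissue was taken from 4 non-pregnant cows on day 15 (NP15), 4 non-pregnant cows on day 18 (NP18) and 4 pregnant cows on day 18 (P18), and the arrays of 3 pregnant cows on day 15 (P15) were analyzed here. Days were counted from insemination as day 1, the labels place the non-pregnant cows in the estrous cycle, and a cow counted as pregnant when trophoblast was seen by eye in the opened uterus. No treatment is named for any group. Pieces of whole tissue were used, so fewer cells of a type and less RNA per cell cannot be told apart.

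IGF1 and IGF2 are secreted growth factors that act mainly through IGF1R, a receptor tyrosine kinase, whereas IGF2R binds IGF2 and carries it to the lysosome. The IGF binding proteins hold the growth factors outside the cell, which extends their life and can restrain or present them to the receptor, and proteases that cut these proteins set the growth factors free. In ruminants, IGFBP1 and IGFBP3 of the endometrium are known as genes that vary with progesterone and with the stage of the cycle, and IGFBP1 has been linked to the migration and attachment of conceptus cells.

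Among the members, IGFBP1 fell from day 15 to day 18 in both states, by 13.2-fold in non-pregnant and 8.02-fold in pregnant cows. IGFBP3 rose 2.53-fold from NP15 to NP18 and was 2.57-fold lower in P18 than in NP18. IGFBP6 was 2.76-fold lower in P18 than in NP18, and IGF2 fell 6.82-fold from P15 to P18. No member was called between pregnant and non-pregnant cows on day 15. Neither receptor was called in any comparison. With scan day as a random block, none of these calls was made, as given with the counts.

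All probes were 60 bases long, and no other probe of the array shared a run of 20 bases with any of the 13. The longest run shared between member probes was 6 to 9 bases. The first 30 bases of the probes behind the results, read 5′ to 3′ from the scanner files, are shown because they are what each signal below was measured with. The last pair is shown because both carry the name IGF1 and gave different patterns. Where in its transcript each probe lies was not analyzed here.
IGFBP1: tctgtggccgtcagaggggaccccaaatgc
IGFBP3: tacgtcatcgtccaaatatgatagcaccta
IGFBP6: actccagaccgaggtcttccgcggggctca
IGF2: agtgtcgtaattctgccaagtggcaccatc
IGF1 (AF017143 probe): ctccctggatttctttttgcctcattattc
IGF1 (BE750409 probe): acagtgattgtgagagtgatcatttcctta

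The signal of each probe is given in array medians, that is, divided by the median signal of the 15208 probes on the same array. It is comparable between cows for 1 probe but not between probes. The median signal itself was from 315 to 409 in NP15, 545 to 686 in P15, 790 to 838 in NP18 and 407 to 563 in P18. Fold changes are differences of mean log2 values, tested with limma over all 15 arrays, and called means an adjusted p (Benjamini-Hochberg, over all tested probes) below 0.05 together with a fold change above 2. A probe was tested where 3 or more arrays had it well above background, which held for 12 of the 13. AW313917 was not well above background in any of the 15 arrays, at 0.00411 to 0.0367 array medians, and was not tested. Slide and scan day each held 1 group only: NP15 was scanned on 3 days and every other group on 1 day, so scan day and group cannot be told apart for P15, NP18 and P18. Samples of 4 and 3 cows can give no exact permutation p below 0.0571, and 4 against 4 none below 0.0286.

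One array of P18 stood apart from the rest of its group. The summed signal of the trophoblast markers was 155, 96.5 and 680 array medians in P18 replicates 2, 3 and 4, but 0.746 in P18 replicate 1. It was 0.517 to 1.57 in NP18 and 0.228 to 0.486 in all arrays of day 15. Called results that rest on P18 are therefore given with and without P18 replicate 1.

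**Figure D1:**
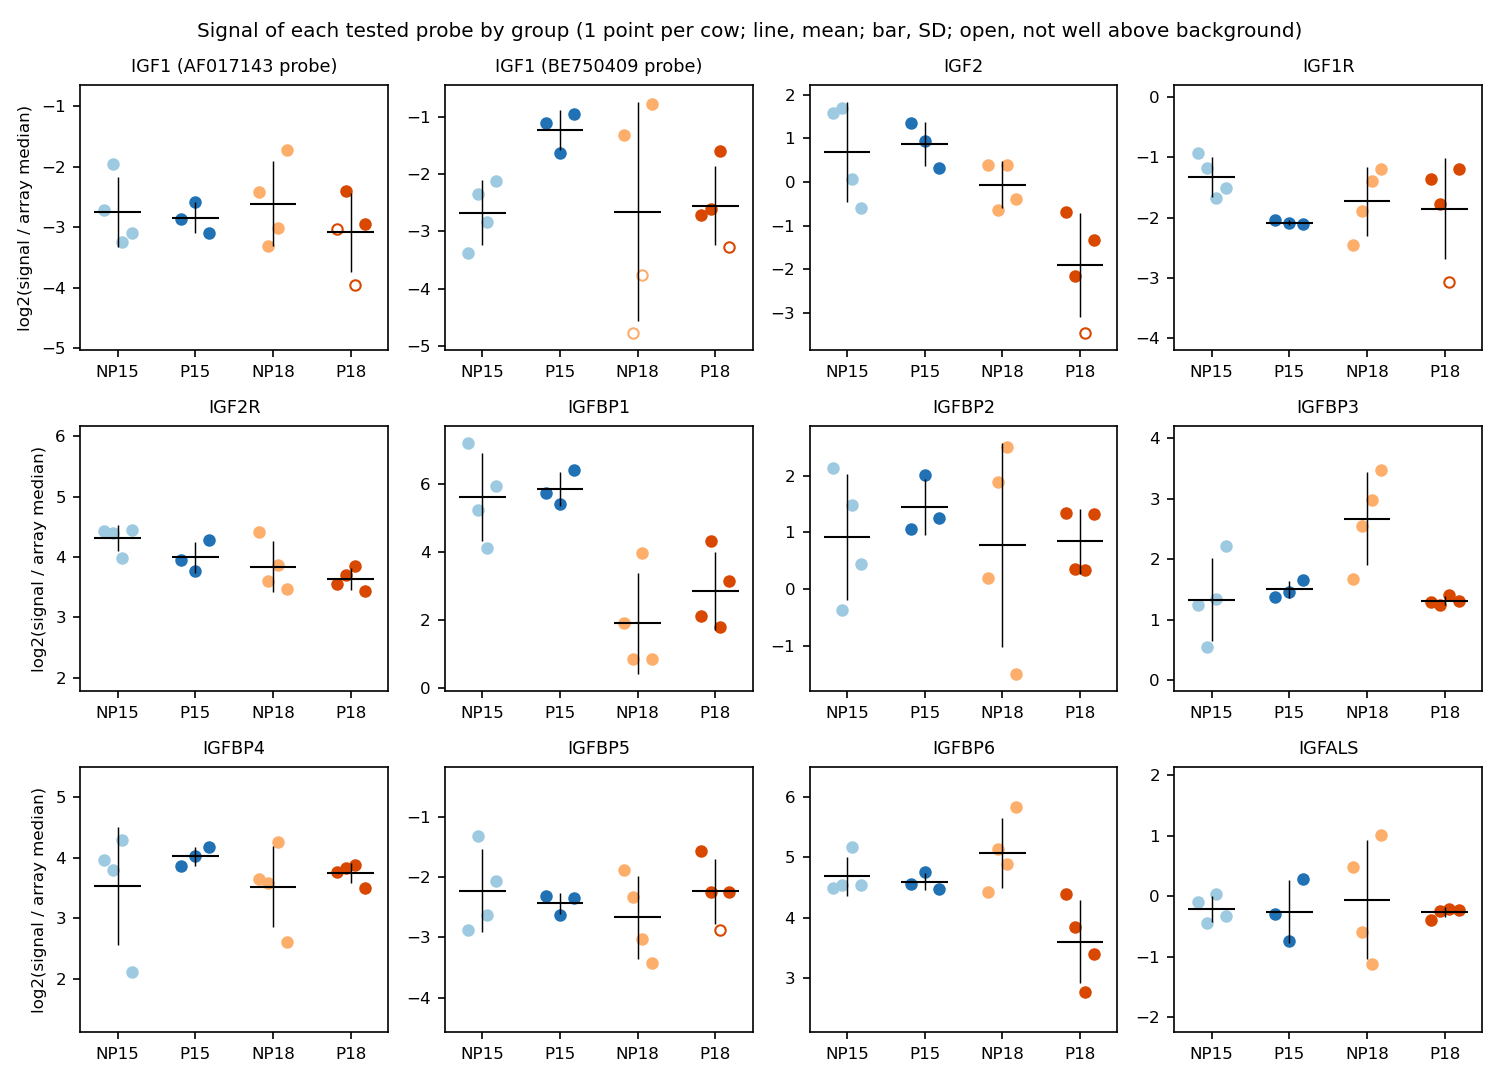
Signal of the 12 tested probes by group, on the y axis as log2 of the signal over the array median. Each point is 1 cow, lines are group means, bars are SD, and open points were not well above background. IGFBP1 is high in both groups of day 15 and low in both groups of day 18, and IGFBP3 stands out in NP18.

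Starting with the ligands, IGF2 fell in pregnant cows between the days. The IGF2 signal was 3.002, 3.25, 1.04 and 0.658 array medians in NP15 and 2.54, 1.93 and 1.25 in P15. It was 1.31, 0.637, 1.31 and 0.766 in NP18 and 0.621, 0.227, 0.0917 and 0.401 in P18, where the value of 0.0917 was not well above background. Every P18 array lay below every array of P15 and of NP18, whereas NP15 overlapped both P15 and NP18. From P15 to P18, IGF2 fell by 2.77 ± 0.64 on the log2 scale (SE, limma adjusted p = 0.0120, exact permutation p = 0.0571). Without P18 replicate 1, the log2 change was -3.17 with an adjusted p of 0.00749, and without P15 replicate 1 it was -2.53 with an adjusted p of 0.0582. The size rests in part on P18 replicate 3, the array not well above background. Without that array the change was the smallest of all omissions, at -2.25 (4.77-fold), and was still called.

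Between the groups of day 18, the log2 difference of IGF2 was -1.84 ± 0.59 (SE), its adjusted p of 0.0769 in limma missed the threshold, and the exact permutation p was 0.0286. Without P18 replicate 1, this difference was called, at -2.24 with an adjusted p of 0.0398. P18 replicate 1, the array with hardly any trophoblast signal, had the highest IGF2 of its group, at 0.621, just below the lowest NP18 value of 0.637.

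The probes of IGF1 gave different patterns. The BE750409 probe was named IGF1 in the files after an expressed sequence tag, and was not checked against an IGF1 transcript here. Its signal was 0.0957, 0.196, 0.141 and 0.231 array medians in NP15 and 0.468, 0.325 and 0.521 in P15, so that all 3 pregnant cows lay above all 4 non-pregnant cows. The log2 difference of 1.45 ± 0.76 (SE) was not called in limma (adjusted p = 0.387, exact permutation p = 0.0571). On day 18, the same probe gave 0.401, 0.0366, 0.0735 and 0.586 in NP18 and 0.152, 0.164, 0.331 and 0.104 in P18. Of these, 2 values of NP18 and 1 of P18 were not well above background, and the groups overlapped.

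The AF017143 probe of IGF1 gave 0.105 to 0.258 array medians in NP15, 0.117 to 0.167 in P15, 0.101 to 0.304 in NP18 and 0.0641 to 0.190 in P18, where 2 of 4 arrays were not well above background. All of these ranges overlapped. Its log2 difference between P15 and NP15 was -0.09 ± 0.42 (SE), with 95% limits of -0.996 and 0.81, and no comparison called it.

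Of the receptors, IGF1R was 0.523, 0.442, 0.314 and 0.350 array medians in NP15 and 0.243, 0.235 and 0.231 in P15. The P15 arrays thus lay close together and below every NP15 array, but the log2 difference of -0.76 ± 0.40 (SE) was not called in limma (adjusted p = 0.395, exact permutation p = 0.0571). On day 18, IGF1R ranged from 0.182 to 0.439 in NP18 and from 0.120, which was not well above background, to 0.434 in P18. The latter 2 groups overlapped almost entirely.

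IGF2R had the smallest spread of the members over the 15 arrays (SD of 0.37 on the log2 scale). It was 15.9 to 21.7 array medians in NP15, 13.6 to 19.4 in P15, 11.1 to 21.4 in NP18 and 10.9 to 14.5 in P18. Among the comparisons tested, its widest log2 difference was -0.47, from NP15 to NP18, and none was called. The P18 arrays lay below every NP15 array, a pair of groups that differ in both day and pregnancy and were not tested against each other. Neighboring groups in the order of their means, NP15, P15, NP18 and P18, overlapped.

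IGFBP1 had the largest spread, with an SD of 2.07 on the log2 scale over the 15 arrays. In non-pregnant cows, its signal was 147, 37.8, 17.2 and 61.9 array medians on day 15 and 3.76, 1.80, 15.8 and 1.80 on day 18. In pregnant cows, it was 53.6, 42.5 and 84.4 on day 15 and 4.34, 20.01, 3.49 and 8.82 on day 18. Within each state, every array of day 18 lay below every array of day 15.

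The log2 change of IGFBP1 from day 15 to day 18 was -3.73 ± 0.75 (SE) in non-pregnant cows (limma adjusted p = 0.00874, exact permutation p = 0.0286) and -3.00 ± 0.81 in pregnant cows (adjusted p = 0.0240, exact permutation p = 0.0571). Pregnancy made no called difference to IGFBP1 on either day. The log2 difference between pregnant and non-pregnant cows was 0.23 on day 15 (95% limits of -1.51 and 1.97) and 0.95 on day 18 (-0.66 and 2.56), and the difference between these was 0.72 with an adjusted p of 0.764 in limma. In non-pregnant cows, leaving out any 1 of the 15 arrays kept the call of IGFBP1, with log2 changes from -4.42 (21.4-fold, without NP18 replicate 3) to -3.20 (9.21-fold, without NP15 replicate 1). In pregnant cows, 5 of the 15 omissions ended it (each P15 array and P18 replicates 1 and 3, with adjusted p up to 0.0939), and without P18 replicate 1 the log2 change was -2.76 with an adjusted p of 0.0501.

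IGFBP3 carries most IGF in the circulation and is also made in tissues. Its signal was 2.35, 1.45, 2.53 and 4.63 array medians in NP15, 2.61, 2.74 and 3.16 in P15, 3.20, 5.82, 7.92 and 11.2 in NP18, and 2.45, 2.37, 2.66 and 2.46 in P18. NP18 was therefore the high group, and the P18 arrays lay within a narrow band below all of NP18. P18 replicate 1, at 2.45, lay in this band with the others. The highest NP15 array, at 4.63, overlapped NP18.

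Compared with NP18, IGFBP3 was lower in P18 by 1.36 ± 0.36 on the log2 scale (-1.36, SE, limma adjusted p = 0.0371, exact permutation p = 0.0286). Between the days in non-pregnant cows it rose by 1.34 ± 0.36 (adjusted p = 0.0305, exact permutation p = 0.0571). The difference between P15 and NP15 was 0.17, and the change of the pregnancy difference between the days was -1.53 ± 0.53 with an adjusted p of 0.134 in limma, so that a difference between the days was not called. Leaving out 1 array ended the call between P18 and NP18 in 10 of 15 cases, all but the 4 NP15 arrays and NP18 replicate 1. The lost calls had log2 differences from -1.40 to -1.09 and adjusted p from 0.0514 to 0.104, and the widest difference was -1.69 without NP18 replicate 1. Without P18 replicate 1, it was -1.35 with an adjusted p of 0.0620. The rise from NP15 to NP18 was lost without NP15 replicate 1 or 2 or NP18 replicate 2, 3 or 4, with log2 changes from 1.07 to 1.67 and adjusted p from 0.00568 to 0.0894 over all omissions.

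IGFBP6 binds IGF2 in preference to IGF1. Its signal was 22.5, 23.1, 36.1 and 23.1 array medians in NP15, 23.6, 26.9 and 22.3 in P15, 21.5, 35.3, 29.6 and 56.7 in NP18, and 20.9, 14.4, 6.85 and 10.6 in P18. The first 3 groups overlapped, and all P18 arrays lay below all others. P18 replicate 1, at 20.9, was only slightly below the lowest NP18 array. Compared with NP18, the log2 difference in P18 was -1.47 ± 0.34 (SE, limma adjusted p = 0.0197, exact permutation p = 0.0286). Without P18 replicate 1, it was -1.73 with an adjusted p of 0.00926. Leaving out NP18 replicate 4 (-1.22, adjusted p = 0.0556) or P18 replicate 3 (-1.19, adjusted p = 0.0629) ended the call.

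Against P15, the log2 difference of IGFBP6 in P18 was -0.99 ± 0.37 (SE), with an adjusted p of 0.0771 and an exact permutation p of 0.0571. Without P18 replicate 1 it was called, at -1.25 with an adjusted p of 0.0322, and with normexp background correction at -1.07 with an adjusted p of 0.0412. It also moved with the scaling, since the median log2 difference of all probes between P18 and P15 was 0.118 with the array median but -0.179 with the 75th percentile of the array as the scale. With the latter, IGFBP6 was called, at -1.29 with an adjusted p of 0.0312. Relative to the median of all probes, the log2 changes from P15 to P18 were -1.11 for IGFBP6, -2.89 for IGF2 and -3.12 for IGFBP1.

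Among the other binding proteins, IGFBP2 varied widely within groups. Its signal was 4.41, 0.774, 2.80 and 1.36 array medians in NP15, 2.09, 4.03 and 2.39 in P15, 1.14, 3.69, 5.68 and 0.355 in NP18, and 2.54, 1.28, 1.26 and 2.51 in P18. All groups overlapped, and the log2 difference of 0.07 between P18 and NP18 had 95% limits of -1.49 and 1.63. IGFBP4 was 4.31 to 19.6 in NP15, 14.6 to 18.1 in P15, 6.13 to 19.1 in NP18 and 11.4 to 14.7 in P18. In both non-pregnant groups, replicate 4 was the lowest by a wide margin. IGFBP5 was weak, with 0.136 to 0.399 in NP15, 0.161 to 0.202 in P15, 0.0934 to 0.270 in NP18 and 0.136 (not well above background) to 0.337 in P18, and its groups overlapped throughout. Neither IGFBP2, IGFBP4 nor IGFBP5 was called in a comparison.

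IGFALS encodes the acid-labile subunit that joins IGF and IGFBP3 in a complex in the circulation. Its signal was 0.737 to 1.02 array medians in NP15, 0.595 to 1.22 in P15, 0.458 to 2.02 in NP18 and 0.765 to 0.863 in P18. The groups overlapped, and the log2 difference between P18 and NP18 was -0.21 ± 0.38 (SE).

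**Figure D2:**
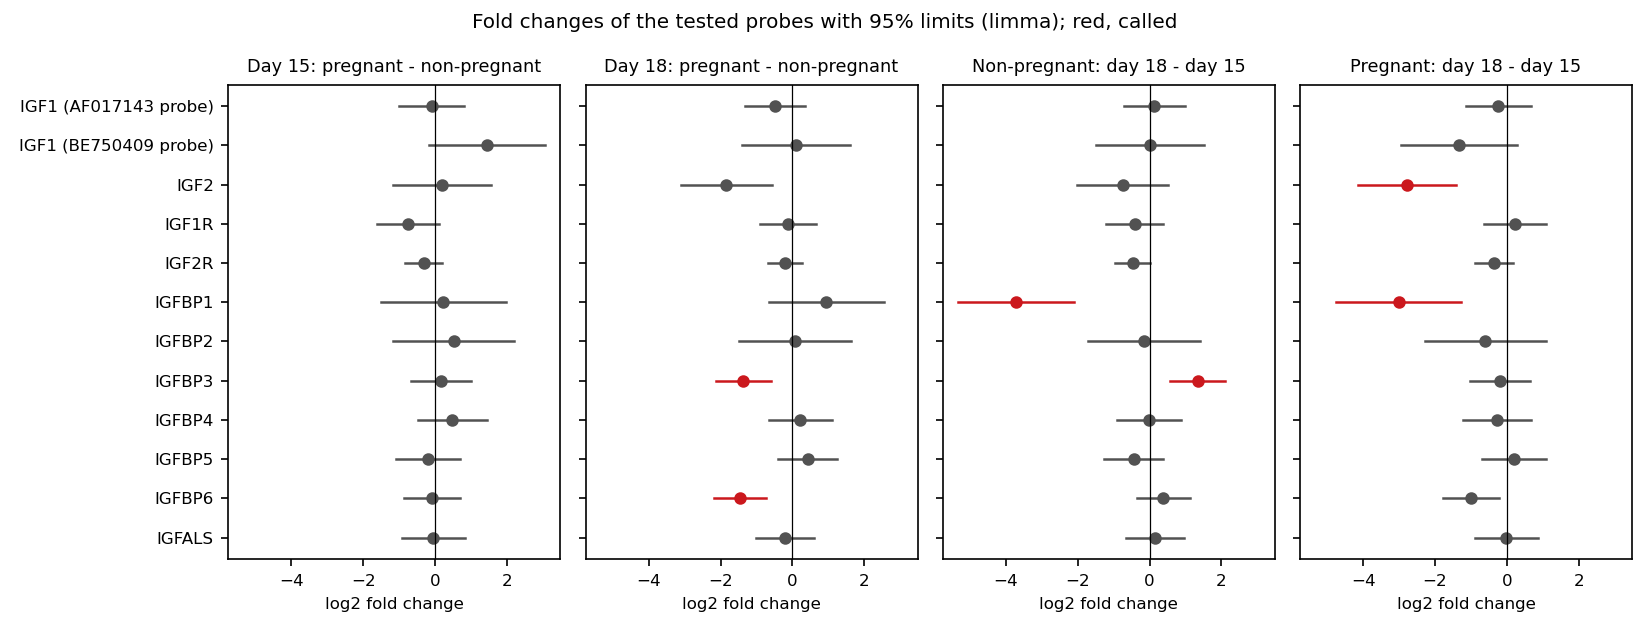
Log2 fold changes of the 12 tested probes with 95% limits from limma, in 4 comparisons, with called changes in red. Pregnancy on day 15 has no red point, IGFBP3 and IGFBP6 are red and below 0 on day 18, and IGFBP1 is red and far below 0 in both comparisons of the days.

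Counted over the 12 tested probes, no member was called for pregnancy on day 15, where limma called 0.798% of all 13164 tested probes, no member reached an unadjusted p of 0.05, and the methods' t-test at an unadjusted p called 1, the BE750409 probe of IGF1. For pregnancy on day 18, 2 were called, both lower, against 5.75% of all probes. From day 15 to day 18, 2 were called in non-pregnant cows, 1 in each direction, against 7.16% of all probes, and 2 in pregnant cows, both lower, against 11.9%. In limma's test of whether the pregnancy difference changed between the days, 0 were called against 2.72% of all probes, and 3 members had an unadjusted p below 0.05, namely IGFBP3, IGFBP6 and IGF2. The median log2 difference over the 12 member probes, beside that over all probes, was 0.06 and -0.06 for pregnancy on day 15 and -0.16 and 0.07 for pregnancy on day 18. For the days it was -0.08 and 0.02 in non-pregnant cows and -0.32 and 0.12 in pregnant cows, and for the change of the pregnancy difference it was -0.32 and 0.11. The comparisons share arrays (NP18 with both NP15 and P18, for example), so their values are not independent of each other.

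**Figure D3:**
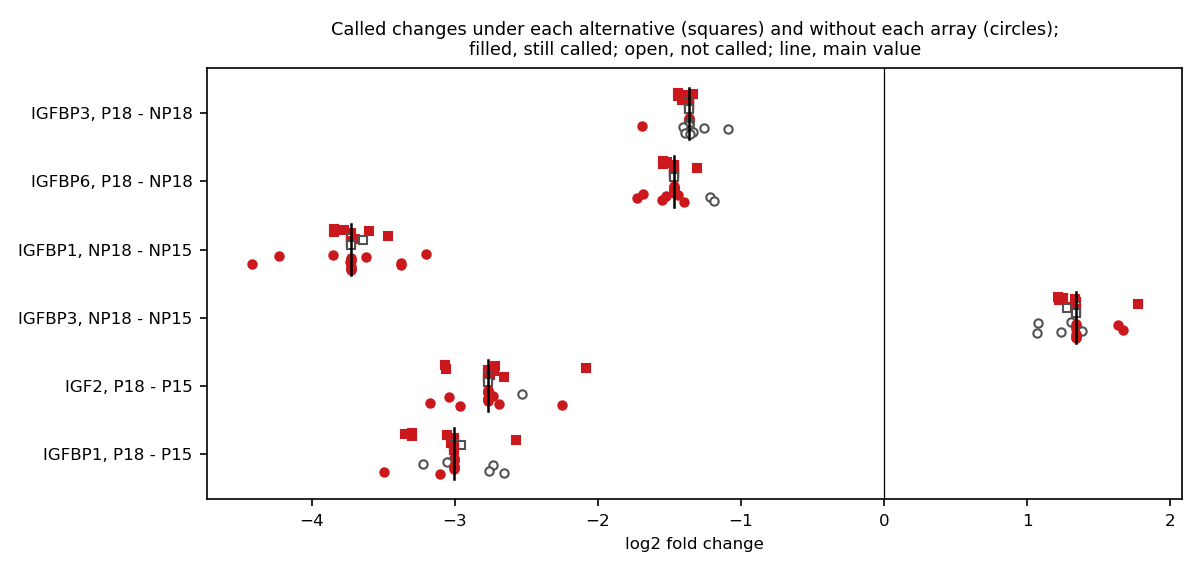
Log2 fold changes of the 6 called changes under each alternative way of processing (squares) and with each array left out (circles), where filled symbols were still called, open ones were not, and the vertical line is the value reported. No symbol crosses 0, and IGFBP3 between P18 and NP18 has the most open symbols.

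All 6 calls kept their direction under the alternatives tried and with each array left out. This was in part fixed in advance. Alternatives that change only the test or threshold, such as the methods' t-test, leave the log2 difference as it is. So does leaving out an array of a group not compared. Where the compared groups did not overlap, no single omission could reverse the direction. With scan day as a random block, none of the 6 was called: the adjusted p was 0.686 for IGFBP3 and 0.614 for IGFBP6 between P18 and NP18, 0.196 for IGFBP1 and 0.314 for IGFBP3 in non-pregnant cows, and 0.263 for IGF2 and 0.344 for IGFBP1 in pregnant cows. With the compared groups fitted alone, 4 of the 6 were not called, namely IGFBP3 in both comparisons, IGFBP6, and IGFBP1 in non-pregnant cows (adjusted p from 0.0584 to 0.148). With the scan day block, the calls over all 13164 probes were 0 for pregnancy on day 15, 49 for pregnancy on day 18, 54 for the days in non-pregnant cows, 0 for the days in pregnant cows and 0 for the change of the pregnancy difference between the days. Since P15, NP18 and P18 were each scanned on 1 day, the correlation within a scan day (0.336) could be estimated from NP15 only. The block therefore cannot decide between scan day and group for any single member.

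Other genes that act with the IGF system came from a list of 60, which also held IGFALS, given above as a member. Besides IGFALS, 27 of them had a probe and 26 were tested. None was called higher in any comparison. For pregnancy on day 18, 3 of the 26 were called lower, against the 5.75% of all probes called in either direction. GHR, the growth hormone receptor, was 2.44, 2.203, 3.21 and 5.37 array medians in NP18 and 1.04, 0.765, 0.225 and 0.545 in P18, with a log2 difference of -2.47 ± 0.59 (SE, limma adjusted p = 0.0226) and, without P18 replicate 1, of -2.77 (adjusted p = 0.0200). HTRA1, a secreted serine protease that cuts IGF binding proteins, was 5.23, 10.0, 7.67 and 11.95 in NP18 and 2.04, 1.204, 1.5 and 3.05 in P18, with a log2 difference of -2.19 ± 0.42 (adjusted p = 0.00675) and, without P18 replicate 1, of -2.24 (adjusted p = 0.0138). For GHR and HTRA1, every P18 array lay below every NP18 array. The call of HTRA1 held with each array left out, and that of GHR was lost without NP18 replicate 3 or 4 or P18 replicate 3 (adjusted p up to 0.0760).

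AKT1, a kinase downstream of IGF1R, was 0.465, 0.839, 1.29 and 1.01 array medians in NP18 and 0.436, 0.0883, 0.0367 and 0.279 in P18. In P18, only 2 of 4 arrays were well above background for AKT1, and all lay below NP18. Its log2 difference of -2.58 ± 0.62 (SE, limma adjusted p = 0.0232) rests in part on these values near background, and so does its change from P15. It was from -3.13 (without P18 replicate 1, adjusted p = 0.00671) to -1.94 with 1 array left out, and was not called without NP18 replicate 3 or 4 or P18 replicate 2 or 3 (adjusted p up to 0.0732). From P15 to P18, 3 of the 26 were called lower, against 11.9% of all probes called in either direction. They were HTRA1 (-1.79, adjusted p = 0.0173), AKT1 (-2.51, adjusted p = 0.0224) and the metalloprotease ADAM9 (-1.23, adjusted p = 0.0244). Without P18 replicate 1, the 3 remained called, at -1.84, -3.05 and -1.44. Each of them lost this call without some other array, HTRA1 without P15 replicate 2 or P18 replicate 2, and AKT1 and ADAM9 without any 1 P15 array or P18 replicate 2 or 3. AKT1 also lost it with the methods' t-test, even at an unadjusted p.

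ADAM9 was also the 1 of the 26 tested genes called for a change of the pregnancy difference between the days, against 2.72% of all probes. The change was -2.07 with an adjusted p of 0.0297 in limma (-2.28 and 0.0212 without P18 replicate 1). ADAM9 was not called on either day alone, at 1.03 with an adjusted p of 0.179 on day 15 and -1.03 with 0.0598 on day 18. The call of the change was ended by 6 of the 15 omissions (NP15 replicate 2, any P15 array, NP18 replicate 3 or P18 replicate 2, with adjusted p up to 0.0944). ADAM9 was 0.660, 0.620, 1.21 and 0.538 in NP15, 1.53, 1.28 and 1.62 in P15, 1.04, 1.09, 1.44 and 1.66 in NP18 and 0.975, 0.595, 0.371 and 0.721 in P18. It was thus above NP15 in P15 and below NP18 in P18, without overlap on either day.

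CTSD, the lysosomal protease cathepsin D, can cut IGF binding proteins. CTSD was the 1 of the 26 tested genes called for pregnancy on day 15, against 0.798% of all probes. Its signal was 51.2, 47.1, 37.7 and 31.4 array medians in NP15 and 14.4, 15.1 and 15.2 in P15, with a log2 difference of -1.47 ± 0.31 (SE, limma adjusted p = 0.0430). In NP18 it was 10.0, 15.3, 19.6 and 15.4, below all of NP15 (-1.49, adjusted p = 0.00690). From NP15 to NP18, CTSD was again the 1 of the 26 called, against 7.16% of all probes. The call of CTSD in NP18 held with each array left out, whereas that on day 15 was lost with 10 of the 15 omissions (adjusted p up to 0.205). The call on day 15 was also lost with the 75th percentile as the scale, quantile normalization and the deposited log2 table. It was lost as well with the compared groups alone, a slide or replicate block and the adjusted methods' t-test. With scan day as a random block, no call of GHR, HTRA1, AKT1, ADAM9 or CTSD was made (adjusted p from 0.177 to 0.658). Of the calls of these genes, the adjusted methods' t-test kept only that of HTRA1 from P15 to P18. That test was not run for the change of the pregnancy difference. Of the 26 tested genes, 9 were higher and 17 lower in P15 than in NP15 whatever the size of the difference, and the counts for day 18 were 10 and 16. Over all tested probes, 45.1% were higher in P15 than in NP15, and 55.7% were higher in P18 than in NP18. By role, a probe was present for 5 of 8 genes of the hormone and receptor axis, not counting that of IGFALS, which is among the 8. It was present for 9 of 12 proteases and their inhibitors and 11 of 33 signaling genes. Of genes related to the binding proteins 2 of 4 had a probe, and of IGF2 mRNA binding proteins 0 of 3.

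Signals of cell type markers were summed for each array and are set beside these results. The brightest probes weigh most in such a sum. The smooth muscle markers (5 of 7 listed genes had a probe, all well above background in every array) summed to 267, 101, 137 and 457 array medians in NP18. In P18 they summed to 141, 84.7, 129 and 56.7, so the groups overlapped. For pregnancy on day 18, 3 of the 5 were called lower, against 5.75% of all probes called in either direction. From P15 to P18, 3 of the 5 were called lower, against 11.9%. The sums were 116 to 222 in NP15 and 162 to 185 in P15. NP18 replicate 4, with the highest sum, had the highest IGFBP3 and IGFBP6 of its group, but NP18 replicate 1, with the next highest sum of 267, had the lowest of both, at 3.20 and 21.5. Without NP18 replicate 4, no member was called for pregnancy on day 18, at -1.09 and an adjusted p of 0.0948 for IGFBP3 and -1.22 and 0.0556 for IGFBP6.

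The stroma markers (8 of 9 listed genes) summed to 858 to 1695 in NP15, 1143 to 1261 in P15, 699 to 1185 in NP18 and 662 to 828 in P18. Of the 8, 3 were called lower in P18 than in P15, against 11.9% of all probes. For pregnancy on day 18, 1 was called lower, against 5.75%, and from NP15 to NP18, 1 was called higher, against 7.16%. In NP15, P15, NP18 and P18, the epithelium markers (6 of 7) summed to 159 to 283, 102 to 136, 118 to 353 and 225 to 323. From P15 to P18, 1 of the 6 was called higher and 1 lower, against 11.9% of all probes. EPCAM was 41.5 to 62.7 in P15 and 121 to 164 in P18, whereas CDH1 was 7.30 to 17.2 and 0.712 to 2.77. In the same order of groups, the endothelium markers (5 of 6) summed to 7.03 to 10.8, 14.4 to 18.7, 10.6 to 19.8 and 8.89 to 20.2. The leukocyte markers (8 of 10) summed to 5.39 to 9.18, 6.33 to 7.88, 5.11 to 7.09 and 6.02 to 10.9. Of the 5 endothelium markers, 1 was called lower in P18 than in NP18 and 1 lower than in P15. Of 7 tested leukocyte markers, 1 was called lower in NP18 than in NP15. Markers of endometrium itself (5 of 7) summed to 21.6 to 63.3 in NP15, 21.0 to 34.1 in P15, 58.4 to 205 in NP18 and 29.2 to 37.2 in P18. Of the 5, 2 were called lower in P18 than in NP18, against 5.75% of all probes. Among the 5 endometrium markers, the progesterone receptor gene PGR was well above background in all arrays and ESR1 in none of P18. The part of the smooth muscle, stroma, epithelium, endothelium, leukocyte and endometrium markers in the IGF results was not tested.

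The trophoblast markers (10 of 12) were the ones that differed most between cows. In P18, 6 of the 9 tested were called higher and 1 lower than in NP18, against 5.75% of all probes. From P15 to P18, 6 of the 9 were called higher, against 11.9%. CSH2 was not well above background in any array. ELF5 was 0.188 to 1.40 in NP18, well above background in all 4 arrays, and 0.0708 to 0.141 in P18. TKDP4 was at most 0.0849 in NP18, in no array well above background, and at least 0.271 in P18, in all 4 well above it. Similar sums can therefore come from different markers. P18 replicate 1, in which 1 of the 10 was well above background, lay below every NP18 array for IGF2, IGFBP3 and IGFBP6, and below every P15 array for IGFBP1 and IGF2, as did the other 3 P18 arrays. It also had the highest IGF2 and IGFBP6 of P18, at 0.621 and 20.9, the values nearest to NP18. The part of trophoblast RNA in the results of P18 was not tested beyond these values.

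**Figure D4:**
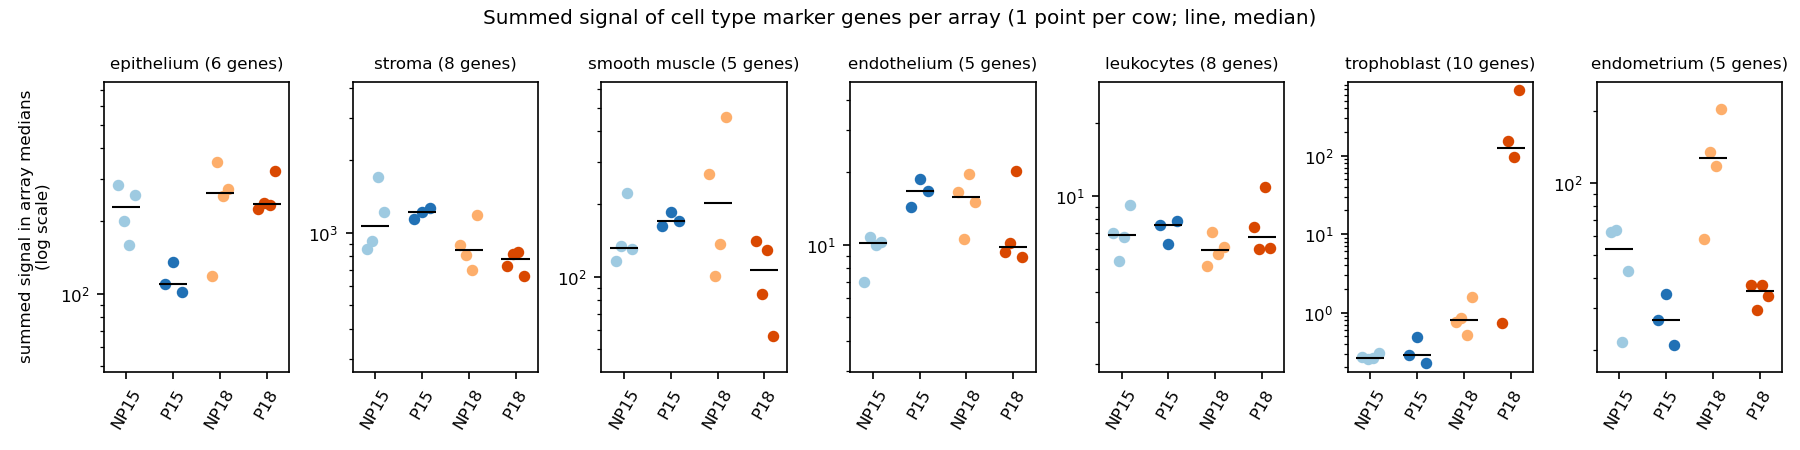
Summed signal of the marker genes of each cell type, in array medians on a log scale, with 1 point per cow and the group median as a line. The trophoblast sum is high in 3 of 4 P18 arrays and within the range of the NP18 sums in the other one. In that array, the marker TKDP4 still lay above all of NP18. Of the smooth muscle sums, that of 1 NP18 array is the highest.

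In the order of RefSeq genes on the ARS-UCD2.0 assembly, IGFBP1 and IGFBP3 are direct neighbors on chromosome 4, as IGFBP2 and IGFBP5 are on chromosome 2. From NP15 to NP18, IGFBP1 fell and IGFBP3 rose. From P15 to P18, IGFBP1 fell, and the log2 difference of IGFBP3 was -0.19 and not called.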

How the data were processed

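Labeled RNA of 15 cows was hybridized to 15 arrays with 15744 spots each. The deposited scanner tables give intensity on a linear scale, from which the authors' Agilent Feature Extraction 9.5 had removed the background, with no scaling between arrays. The authors also deposited a log2 table of the same arrays. For each array, its values were the log2 signal less 1 constant, which lay -0.0126 to -0.0052 from the log2 of the 75th percentile and 2.72 to 3.19 above the log2 of the median, so the table was used as an alternative scaling. The PCR, immunostaining and culture experiments of the study were not analyzed here.

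Each intensity was divided by the array median, as in the study's methods, and the log2 of the ratio was used, without control spots or flagged outliers. The 13164 probes that 3 or more arrays had well above background were fitted with 1 mean per group in limma 3.58.1 and R 4.3.3, and p-values were adjusted over all of them. Exact two-sided permutation tests of mean log2 values, for 1 member and 2 groups at a time, were not adjusted for the number of members and comparisons. The fit was checked on simulated data. Python 3.11.15 with scipy 1.17.1 and matplotlib 3.10.9 served for the other steps. Precision is limited by the 3 or 4 arrays in a group.

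Members were named by the rule above, and other genes of the system where they were called. The member rule, the list of 60 genes and the marker lists were chosen with earlier results of these data known. For each listed gene the brightest probe was taken, and gene names came from the files and the RefSeq table of ARS-UCD2.0. Its coordinates were used only to put the genes of each chromosome in order.

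Alternatives were scaling by the 75th percentile, quantile normalization, normexp with an offset of 50, the deposited log2 table, no filter or a filter for all arrays, array weights, trend and robust variances, the compared groups alone, a block for slide, scan day or replicate number, no limit on the fold, unadjusted p, the methods' t-test, and leaving out each array. They were planned for the members, and were run for the called genes of the list after the data were seen.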

Additional observations from a re-analysis of the deposited data

Results flagged for a closer look

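In groups of 4, an array was set apart when its gap to the nearest other array took more of the group's range than Dixon's 95% critical value. Of 39 such groups of member probes, 3 met this, and chance alone flags about 1 in 20. IGF2R was lowest in NP15 replicate 3, at 15.9 array medians against 21.0 to 21.7 in the others, with a gap of 0.894 of the range. IGFBP6 was highest in the same array, at 36.1 against 22.5 to 23.1, with a gap of 0.939. IGFALS was lowest in P18 replicate 1, at 0.765 against 0.846 to 0.863, with a gap of 0.835. No called change compares any of these 3 values.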

How the results depend on the processing

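Of the members' log2 fold changes under 16 alternatives, 819 of 899 kept their direction and their side of the threshold, 45 that were not called changed sign, 17 calls were lost, 18 were gained and none of the called values changed sign. With each of the 15 arrays left out, the counts were 824 of 900, 50, 23, 3 and 0. Alternatives that change only the test or threshold, and omissions from a group not compared, could not change a sign. For pregnancy on day 18, the count of 2 called members became 0 with the compared groups alone, 1 with slide as a random block, 0 with scan day as a random block and 0 with the methods' t-test after adjustment, and 0 to 2 with an array left out. From day 15 to day 18 in non-pregnant cows, the count of 2 became 0 with the compared groups alone, with scan day as a random block and with the adjusted methods' t-test, and 1 to 2 with an array left out. In pregnant cows, it became 1 with only the probes well above background in all arrays (IGF2 was then not tested), 0 with scan day as a random block and 1 with the adjusted methods' t-test, and 0 to 2 with an array left out. For pregnancy on day 15, the count of 0 became 1 with the unadjusted methods' t-test. For the change of the pregnancy difference between the days, the count of 0 became 2 with normexp and with array weights, 3 with the unadjusted p, and 0 to 1 with an array left out. IGF2 between P18 and NP18 was called with array weights (-1.66, adjusted p = 0.0383). The BE750409 probe of IGF1, not called from P15 to P18 in limma (-1.33, adjusted p = 0.240), was called there with some alternatives. These were array weights (-1.53, adjusted p = 0.0161), the compared groups alone (-1.33, adjusted p = 0.0345) and the unadjusted methods' t-test. IGFBP6 gained a call there with quantile normalization (-1.32, adjusted p = 0.0227) and the deposited log2 table (-1.29, adjusted p = 0.0312). Its other gained calls are given above. The cause of these changes was not tested.

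Replicate numbers did not pair the cows: same-numbered arrays of different groups correlated at -0.259 to 0.304 in their deviations from the group means, over 0.1 in 3 of 21 pairs. With the replicate number as a block, the count in pregnant cows between the days was 1 (IGF2, while IGFBP1 had a log2 change of -2.96 and an adjusted p of 0.0621), and the replicate block changed no other count of called members. Weak probes were limited by signal over background. In scanner intensity, before division by the array median, the lowest value well above background was 9.60 to 28.3 on day 15. On day 18 it was 53.5 to 75.03 in the same units.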

Other observations

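For the 3 members with the largest spread among those well above background in all arrays, the 3 genes most like each were sought by Pearson's r over the 15 arrays among 9550 probes well above background in all of them. They are given as a description, since the arrays share groups and scan days. IGFBP1 was most like PSPH (r = 0.857), PPM1D (0.851) and ACAD8 (0.815), and with the group means taken out these were 0.627, 0.722 and 0.576. IGFBP3 was most like PTHLH, which encodes a parathyroid hormone-like peptide (0.895), SLC39A7 (0.888) and UGDH (0.885), and with the group means taken out these were 0.779, 0.844 and 0.734. IGFBP2 was most like MATK (0.707), PLA2G4A (0.701) and PLA1A (0.699), at 0.741, 0.696 and 0.782 with the group means taken out.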
